A study of Mus musculus with 8 samples.

Results

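The claudin, connexin and tight junction genes described here are the 48 genes of an Affymetrix mouse genome array whose symbol is that of a claudin (Cldn), a connexin (Gja, Gjb, Gjc, Gjd), a zonula occludens protein (Tjp) or a Par protein (Pard3, Pard6), or is Ocln, Marveld2, Marveld3, F11r, Jam2, Jam3 or Cgn. They were chosen by name, not by level, among 18193 genes measured, and were read by 85 of 45037 probe sets. There were 20 claudins with 30 probe sets, 13 connexins with 23, 3 junctional adhesion molecules with 9, 3 MARVEL proteins with 6, 3 plaque proteins with 4 and 5 Par genes with 12. The pattern for the Par genes also took in 1 antisense RNA, Pard3bos1.

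The study compared the supporting cells of the XX and the XY mouse gonad with each other and with whole gonads, all at embryonic day 13 and all from a line labelled C57BL6/J-Tg92. There were 4 groups of 2 arrays. The pre-granulosa group was sorted EGFP-positive cells of XX gonads, about 30000 cells a sample, and the Sertoli group was sorted EGFP-positive cells of XY gonads, about 22000 cells. The ovary and testis groups were whole organs, 4 gonads pooled in each sample. The labels do not name the promoter that drives the EGFP or say that the arrays of 1 group come from different litters, so p-values measure only the spread between these samples, which may be technical. In RNA of sorted pools and of whole organs, fewer cells of a type and less RNA per cell cannot be told apart.

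Tight junctions seal the space between neighbouring epithelial cells: claudins, occludin (Ocln) and the junctional adhesion molecules cross the membrane, and plaque proteins such as Tjp1 and cingulin (Cgn) tie them to actin. Connexins form gap junctions, channels through which ions and small molecules pass from cell to cell, and Par3 and Par6 set up the apical side of a polarised cell, where tight junctions form. After puberty Sertoli cells build the blood-testis barrier from such junctions, with Cldn11 as an essential claudin, and Gja1 couples Sertoli cells in the testis and granulosa cells in the ovary.

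Values are log2 probe set values. Marker lists told the XY from the XX groups. The mean of 10 Sertoli markers was 11.04 and 11.14 in Sertoli cells against 7.08 and 7.73 in pre-granulosa cells. The mean of 8 pre-granulosa markers was 9.62 and 9.84 in pre-granulosa cells against 6.12 and 6.30 in Sertoli cells. Whole organs read near the sorted cells of their sex, at 10.64 and 10.62 on the Sertoli list in testes and 9.95 and 9.91 on the pre-granulosa list in ovaries. Against the organ, 1 of 10 Sertoli markers was called (7.05% of all genes were) and 0 of 8 pre-granulosa markers (6.10%). These 2 lists thus say little on enrichment by the sort. The mean of 8 germ cell markers was 4.27 to 4.58 in sorted cells and 8.72 to 9.01 in gonads, and 5 of the 8 were at or under background in each sorted group. Pre-granulosa replicate 1 stood apart in RNA quality, with 3′ control probe sets reading above 5′ ones by 3.08 for actin and 3.68 for GAPDH, against 1.70 and 1.24 in replicate 2. Sertoli replicate 2 stood apart in macrophage markers, with a mean over 7 genes of 7.44 against 5.99 in replicate 1 and 4.48 to 4.70 in pre-granulosa cells, and 1 of the 7, C1qb, was called higher in Sertoli cells. The mean of 4 fetal Leydig markers was 8.23 and 9.39 in Sertoli cells and 6.92 and 6.47 in pre-granulosa cells, a median difference of 2.00 with 0 of 4 called, against 11.37 and 11.11 in testes and 6.68 and 6.74 in ovaries. The part of either marker list in the Sertoli minus pre-granulosa differences of the junction genes was not tested. The 4 sorted arrays and the 4 gonad arrays appear to have been normalized separately, and a constant of 0.23 was added to the sorted arrays wherever sorted cells were compared with organs.

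Not every junction gene read above background. The background level was set at 4.78, the highest reading that Kdm5d, Uty or Eif2s3y, which are Y-linked, reached in an XX array. Of the 48 genes, 27 read above it in all 8 arrays, 12 in some arrays, and 9 in none: Cldn4, Cldn8, Cldn16, Gja5, Gja10, Gjb6, Gjc3, Marveld3 and Pard3bos1, which read 3.08 to 4.76. All 5 Par genes and all 3 plaque genes read above background in every array, as did 8 of 20 claudins (Cldn3, Cldn5, Cldn6, Cldn7, Cldn9, Cldn11, Cldn12 and Cldn14) and 8 of 13 connexins. Both arrays were above background for 31 of the 48 genes in pre-granulosa cells, 31 in Sertoli cells, 35 in the ovary and 33 in the testis. Over all genes those shares were 72.2%, 73.1%, 79.5% and 79.6%.

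The comparison of Sertoli with pre-granulosa cells asks which junction genes differ between the XY and the XX supporting cell. Gjb2, a connexin known for its part in the inner ear and the epidermis, was higher in Sertoli cells, and Cgn, which encodes the plaque protein cingulin, was lower. By at least 1 of their probe sets, Jam2, an adhesion molecule, and Pard6b, a scaffold of the Par polarity complex, were also higher in Sertoli cells. A gene was read by its probe set with the highest mean, and called at a Benjamini-Hochberg adjusted p of at most 0.01 in limma's test over all probe sets. On that basis 2 of the 48 genes were called, 1 higher and 1 lower, against 2.67% of all genes (1.62% higher and 1.05% lower), and 4 by any of their probe sets, against 3.42%. An unadjusted p under 0.05 was reached by 6 of the 48, against 22.4% of all genes. The median difference was 0.10 for the 48 genes and 0.04 for all genes, and the median size of the difference was 0.27 and 0.28.

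**Figure D1:**
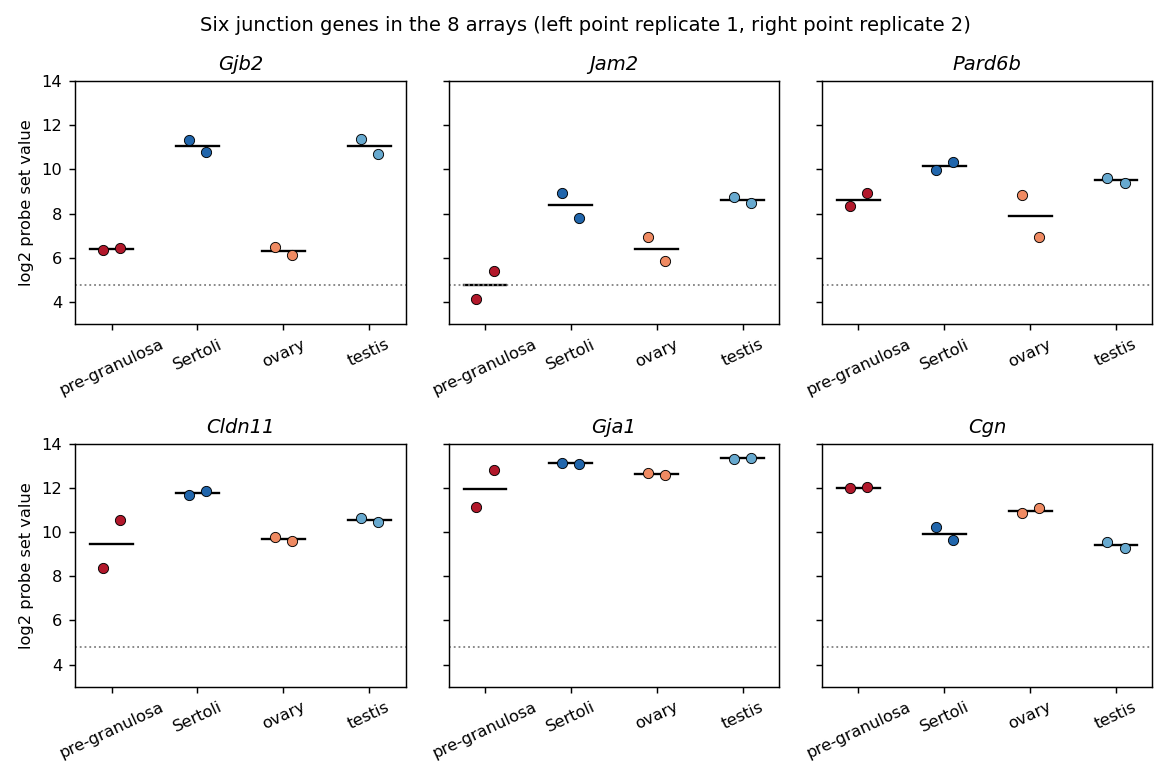
Log2 probe set value (vertical axis) of Gjb2, Jam2, Pard6b, Cldn11, Gja1 and Cgn in the 4 groups of 2 arrays, each by its probe set with the highest mean. Points are arrays, bars are group means and the dotted line is the background level of 4.78. Gjb2 sits between 10.71 and 11.39 in Sertoli cells and testes and between 6.13 and 6.48 in pre-granulosa cells and ovaries, while Cgn is highest in pre-granulosa cells at 11.99 and 12.04.

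Among connexins, Gjb2 read 6.34 and 6.44 in pre-granulosa cells and 11.32 and 10.79 in Sertoli cells, a difference of 4.67 ± 0.29 (SE, adjusted p = 0.00142) or 25.4-fold. The groups were far apart. In whole organs Gjb2 read 6.48 and 6.13 in ovaries and 11.39 and 10.71 in testes, a difference of 4.75 ± 0.29 (adjusted p = 0.00373) or 26.8-fold. Sorted cells and organs of the same sex read alike for this probe set: Sertoli cells differed from testes by 0.24 (adjusted p = 0.589) and pre-granulosa cells from ovaries by 0.32 (adjusted p = 0.474). The Sertoli call on Gjb2 held with any 1 of the 8 arrays left out, but not in a fit to the 4 sorted arrays alone (adjusted p = 0.0614), which called 0 of all genes. The testis call was lost without either Sertoli array (0.0102), without ovary replicate 1 (0.0513) or 2 (0.0484) and without testis replicate 1 (0.0493) or 2 (0.0377), at differences of 4.41 to 5.09. Without any 1 ovary or testis array, 0 of all genes were called in that comparison.

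Gjb2 lies between 2 other connexin genes on mouse chromosome 14, Gja3 and Gjb6, in RefSeq gene order (GRCm38.p6). Gja3, known as a lens connexin, read 5.18 to 5.36 in sorted cells and 5.90 to 6.08 in gonads, with a Sertoli minus pre-granulosa difference of 0.09 (adjusted p = 0.805). Gjb6 was at or under background in all 8 arrays, at 3.55 to 4.01, with a difference of 0.19 (adjusted p = 0.615). Neither neighbour was called in testis minus ovary, at 0.15 (adjusted p = 0.896) for Gja3 and -0.15 (adjusted p = 0.923) for Gjb6.

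The other connexins were not called between Sertoli and pre-granulosa cells. Gja1 read 11.13 and 12.80 in pre-granulosa cells, 13.13 and 13.10 in Sertoli cells, 12.66 and 12.60 in ovaries and 13.33 and 13.34 in testes. Its Sertoli minus pre-granulosa difference was 1.15 ± 0.49 (adjusted p = 0.282) and its testis minus ovary difference 0.70 ± 0.49 (adjusted p = 0.808). Of its 6 probe sets, 5 read 10.83 to 13.34 in every array, so the gene was well above background in both supporting cell types and both organs. Gja4, known from endothelium and oocytes, read 6.40 and 6.01 in pre-granulosa cells and 6.03 and 7.63 in Sertoli cells, an overlap. The high value was in Sertoli replicate 2, the array with the higher macrophage, fetal Leydig and erythroid markers, whose part in this was not tested. Over the 13 connexins the Sertoli minus pre-granulosa differences other than that of Gjb2 ran from -0.41 for Gjc1 to 1.15 for Gja1.

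Of the junctional adhesion molecules, Jam2 showed a large difference, and its probe sets disagreed on the call. The probe set with the highest mean read 4.12 and 5.41 in pre-granulosa cells and 8.93 and 7.82 in Sertoli cells, a difference of 3.61 ± 0.60 (adjusted p = 0.0242), which was not called. A second probe set read 4.74 and 3.76 against 7.25 and 7.67, a difference of 3.21 ± 0.37 (adjusted p = 0.00750), at least 6.40-fold against the background level. All 5 Jam2 probe sets read higher in Sertoli cells by group mean, and 4 of 5 read higher in testes than in ovaries. The call on the second probe set was lost without either Sertoli, ovary or testis array (adjusted p 0.0221 to 0.0420). F11r, which encodes a ubiquitous epithelial adhesion molecule, read 10.09 and 9.47 in pre-granulosa and 9.41 and 9.90 in Sertoli cells. Jam3 read 5.51 and 6.26 against 6.15 and 6.66, and neither gene's groups were apart.

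The Par genes went both ways. Pard6b read 8.32 and 8.93 in pre-granulosa cells and 9.95 and 10.33 in Sertoli cells by its probe set with the highest mean, a difference of 1.52 ± 0.60 (adjusted p = 0.243). Its second probe set read 7.85 and 7.52 against 9.29 and 9.89, a difference of 1.90 ± 0.23 (adjusted p = 0.00919) or 3.74-fold, a call that was lost on leaving out any 1 of the 8 arrays (adjusted p 0.0115 to 0.0376). In testes minus ovaries the 2 probe sets gave 1.63 ± 0.60 (adjusted p = 0.465) and 0.68 ± 0.23 (adjusted p = 0.414). Pard6g, a close relative of Pard6b, read 10.47 and 9.68 in pre-granulosa cells against 8.95 and 8.52 in Sertoli cells, a difference of -1.34 ± 0.36 (adjusted p = 0.102), while its second probe set gave 0.17. Pard3, the scaffold that recruits Par6 to the junction, read 8.17 and 6.85 against 7.09 and 7.06. Its second probe set gave -2.01 ± 0.54 (adjusted p = 0.100), at 8.64 and 6.97 in pre-granulosa against 6.02 and 5.58 in Sertoli cells. The high value was in pre-granulosa replicate 1, the array with the high 3′ to 5′ difference. The remaining Pard3 probe sets gave -0.38 and 0.41. No Par gene other than Pard6b was called. Pard6a read 6.04 to 6.93 in all arrays.

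**Figure D2:**
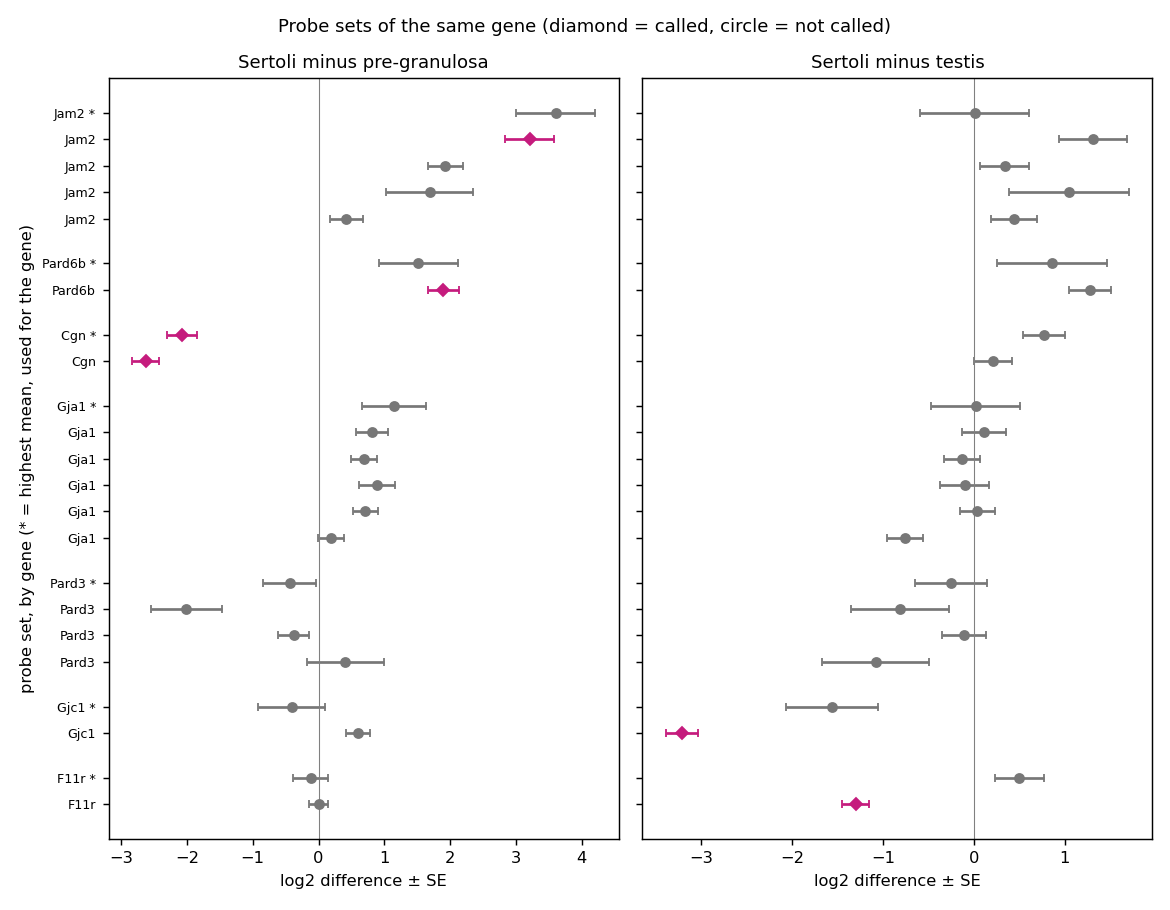
Log2 difference with its standard error (horizontal axis) for each probe set of 7 genes with several probe sets, in Sertoli minus pre-granulosa (left) and Sertoli minus testis (right). Diamonds are called and circles are not, and an asterisk marks the probe set used for the gene. Both Cgn probe sets are called at the left, at -2.08 and -2.63, while for Jam2 and Pard6b a probe set other than the one used for the gene is called.

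Cgn was the member with the lowest Sertoli minus pre-granulosa difference. It read 11.99 and 12.04 in pre-granulosa cells and 10.21 and 9.66 in Sertoli cells, a difference of -2.08 ± 0.23 (adjusted p = 0.00649), or 4.22-fold lower in Sertoli cells. Its second probe set read 8.52 and 8.37 against 6.09 and 5.54, a difference of -2.63 ± 0.21 (adjusted p = 0.00239) or 6.20-fold. In whole organs the first probe set read 10.85 and 11.07 in ovaries and 9.54 and 9.26 in testes, which is -1.56 ± 0.23 and missed the threshold (adjusted p = 0.0529), and the second gave -0.93 (adjusted p = 0.176). The call on the first probe set was lost on leaving out any 1 of the 8 arrays (adjusted p 0.0101 to 0.0263). That on the second was lost without Sertoli replicate 2 or any ovary or testis array (0.0101 to 0.0151). The other plaque genes did not separate the sorted groups. Tjp1, which encodes the scaffold ZO-1, read 9.94 and 11.08 in pre-granulosa and 10.31 and 10.47 in Sertoli cells, and Tjp3 read 6.60 and 6.34 against 6.36 and 6.71.

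The bases before the starts of Gjb2, Pard6b and Cgn, the genes called between the sorted groups that have an entry in the RefSeq promoter table (GRCm38.p6), are shown with those before Gjb6, the neighbour of Gjb2 that read at or under background. Each is the 250 bases upstream of the start, 5′ to 3′ in the direction of the gene. Capitals mark matches on either strand to any of 7 motifs: the box named for CCAAT, the GC box as GGGCGG, the core promoter's box as TATAAA, the site of SOX factors as AACAAT, that of NR5A1 as AAGGTCA, that of GATA factors as AGATAA and the E-box of Snail factors as CACCTG. None of the 7 is contained in another. The Gjb2 window is chr14:57104703-57104952 (minus strand), that of Gjb6 chr14:57133612-57133861 (minus strand), that of Pard6b chr2:168080754-168081003 (plus strand) and that of Cgn chr3:94786483-94786732 (minus strand).
Gjb2: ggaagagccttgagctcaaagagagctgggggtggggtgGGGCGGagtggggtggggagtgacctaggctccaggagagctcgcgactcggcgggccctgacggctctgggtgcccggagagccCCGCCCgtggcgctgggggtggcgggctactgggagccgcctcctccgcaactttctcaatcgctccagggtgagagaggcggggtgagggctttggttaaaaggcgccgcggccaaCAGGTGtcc
Gjb6: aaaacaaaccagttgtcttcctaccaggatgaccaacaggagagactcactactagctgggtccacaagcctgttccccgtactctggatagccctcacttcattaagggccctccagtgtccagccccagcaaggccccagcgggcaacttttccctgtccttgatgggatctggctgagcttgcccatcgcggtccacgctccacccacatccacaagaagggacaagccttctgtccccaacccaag
Pard6b: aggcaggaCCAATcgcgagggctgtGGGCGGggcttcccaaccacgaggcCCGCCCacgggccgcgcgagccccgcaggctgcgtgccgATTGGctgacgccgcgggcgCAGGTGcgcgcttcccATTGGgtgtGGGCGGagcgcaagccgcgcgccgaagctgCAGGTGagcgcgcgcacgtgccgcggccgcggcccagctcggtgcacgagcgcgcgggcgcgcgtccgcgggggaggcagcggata
Cgn: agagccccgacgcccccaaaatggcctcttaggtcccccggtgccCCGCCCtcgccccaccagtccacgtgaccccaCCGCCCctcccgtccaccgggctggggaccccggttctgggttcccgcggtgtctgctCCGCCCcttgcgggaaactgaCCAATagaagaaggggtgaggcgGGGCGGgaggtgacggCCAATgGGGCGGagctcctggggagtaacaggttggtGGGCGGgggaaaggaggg

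The windows of the 3 called genes were richer in G and C and in CpG than the median of all 32851 windows in the table, which was 52.4% and 6 CpG. Gjb2 had 69.2% and 18 CpG, Pard6b 77.6% and 43, and Cgn 70.4% and 19, while Gjb6 had 56.8% and 5. Such richness was not particular to called genes. Gja3, the other neighbour of Gjb2 and not called, had windows with 62.8% and 26 CpG and with 76% and 29. Pard3, also not called, had windows with 79.2% and 34 CpG and with 51.6% and 5. GC boxes were found 2 times before Gjb2, 3 times before Pard6b and 6 times before Cgn, and 32.7% of all windows hold at least 1. CCAAT boxes were found 3 times before Pard6b and 2 times before Cgn (33.8% of all windows hold one), and E-boxes 1 time before Gjb2, 9 bases upstream of the start, and 2 times before Pard6b (17.2%). The Gjb6 window held none of the 7 motifs, and none of the 4 windows held the TATA, SOX, NR5A1 or GATA motif (12.4%, 9.42%, 4.08% and 9.99% of all windows). Windows were found for 38 of the 48 genes, under the 80% needed to compare the genes as a set, so no share over the members is given.

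No claudin was called between Sertoli and pre-granulosa cells (2.67% of all genes were), and 1 of 20 reached an unadjusted p under 0.05 in limma's test (22.4%). A difference over 1 in size was found for 3 of 20, Cldn11, Cldn7 and Cldn23, near the share of 14.7% over all genes. Cldn11 read 8.36 and 10.56 in pre-granulosa cells, 11.67 and 11.86 in Sertoli cells, 9.76 and 9.59 in ovaries and 10.65 and 10.47 in testes. Its Sertoli minus pre-granulosa difference of 2.31 ± 0.64 was not called (adjusted p = 0.111), although the groups did not overlap, and its testis minus ovary difference was 0.89 ± 0.64 (adjusted p = 0.819). The pre-granulosa arrays differed from each other by 2.20 for this gene. Cldn7, a claudin of many simple epithelia, read 4.99 and 7.14 in pre-granulosa cells and 7.48 and 7.56 in Sertoli cells, a difference of 1.46 ± 0.66 (adjusted p = 0.306). Without pre-granulosa replicate 2 the difference was 3.40 for Cldn11 and 2.54 for Cldn7. Without replicate 1, the array with the high 3′ to 5′ difference, it was 1.21 for Cldn11 and 0.39 for Cldn7.

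Low values in pre-granulosa replicate 1 were seen in several members. In that array 7 of 48 genes read over 1 lower than in replicate 2, namely Cldn11, Cldn7, Pard3b, Gja1, Jam2, Tjp1 and Cldn6. Pard3 was the 1 gene that read over 1 higher. The same count was not made over all genes, so the split cannot be called particular to the members. The part of the array's high 3′ to 5′ difference in these values was not tested. The spread between the 2 pre-granulosa arrays was alike for members and others. As a root mean square of standard deviations, it was 0.523 over the members and 0.531 over all probe sets. Cldn23 read 3.35 and 3.43 in pre-granulosa cells and 3.65 and 6.02 in Sertoli cells, so that only Sertoli replicate 2 was above background. Without Sertoli replicate 1 the Cldn23 difference was 2.63, and without Sertoli replicate 2 it was 0.26. Besides macrophage markers, Sertoli replicate 2 read above replicate 1 in the means of fetal Leydig markers (9.39 against 8.23) and erythroid markers (6.08 against 5.41). The part of any of these markers in the Cldn23 value was not tested.

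The other named claudins overlapped or lay close together between the sorted groups. Cldn6, a claudin of embryonic epithelia, read 6.39 and 7.45 in pre-granulosa cells and 8.30 and 6.96 in Sertoli cells. Cldn3 read 5.77 and 5.88 against 5.95 and 6.38, and Cldn12, a brightly read claudin here, 11.03 and 10.54 against 10.72 and 11.09. Cldn5, the claudin of endothelium, read 5.79 and 5.94 against 6.39 and 6.41, a difference of 0.54 ± 0.24 (adjusted p = 0.294). Among MARVEL proteins, occludin read close to background everywhere: Ocln was 4.66 and 4.65 in pre-granulosa cells, 4.45 and 4.22 in Sertoli cells, 5.16 and 5.12 in ovaries and 5.36 and 4.76 in testes. Marveld2, which seals corners where 3 cells meet, read 6.18 and 6.87 in pre-granulosa cells and 6.63 and 7.21 in Sertoli cells.

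**Figure D3:**
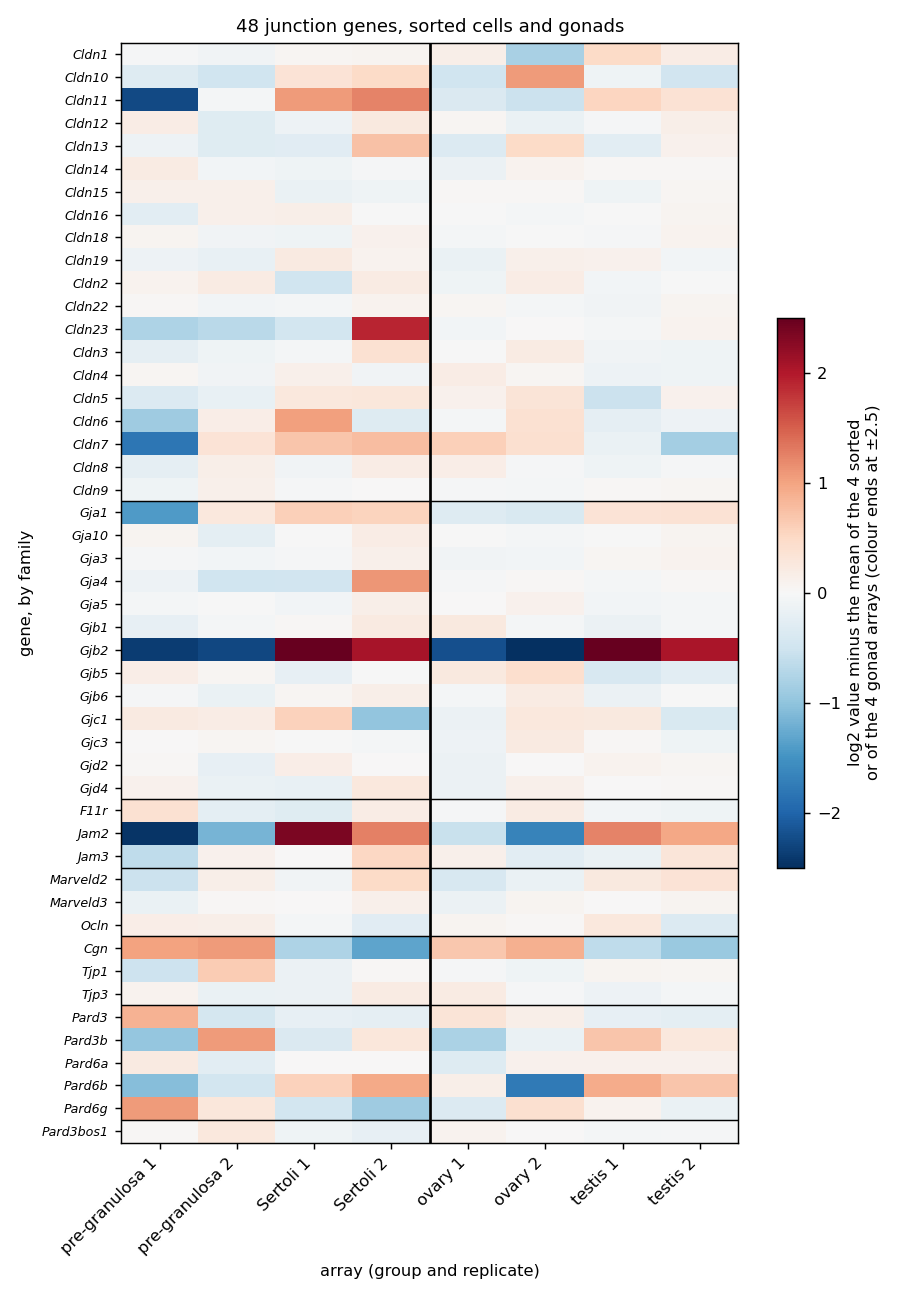
Log2 value of each of the 48 genes (rows, by family) in each of the 8 arrays (columns), minus the mean of the 4 sorted arrays or of the 4 gonad arrays, with colours ending at 2.5 either way. Gjb2 is high in both Sertoli and both testis arrays and Cgn in both pre-granulosa and both ovary arrays, and pre-granulosa replicate 1 is low for Cldn11, Cldn7 and Gja1.

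The comparison of testis with ovary asks the same question in whole organs. Gjb2 alone was called, 1 of 48 genes against 0.352% of all genes (0.236% higher and 0.115% lower), by the probe set with the highest mean and also by any probe set (0.434% of all genes). An unadjusted p under 0.05 was reached by 5 of the 48, against 11.5%. The highest differences after that of Gjb2 were 2.21 ± 0.60 for Jam2 (adjusted p = 0.266) and 1.63 for Pard6b, and the lowest was -1.56 for Cgn, followed by that of Cldn7 (adjusted p = 0.785). Jam2 read 6.94 and 5.83 in ovaries and 8.74 and 8.46 in testes, and Cldn7 read 7.43 and 7.24 in ovaries and 6.67 and 5.99 in testes. Pard3b, a Par3 relative, differed by 0.95 ± 0.65 (adjusted p = 0.802). The median difference was -0.01 for the 48 genes and -0.04 for all genes.

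**Figure D4:**
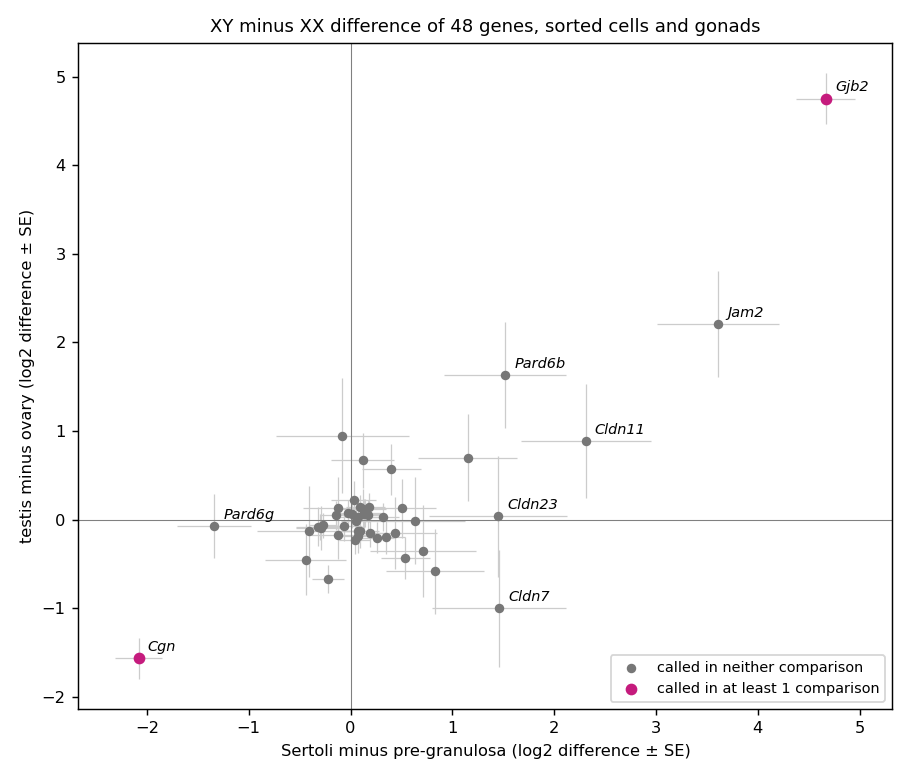
Testis minus ovary difference (vertical axis) against Sertoli minus pre-granulosa difference (horizontal axis), both in log2 units with standard errors, for the 48 genes. Gjb2 lies alone at 4.67 and 4.75, Cgn lies at -2.08 and -1.56, and Cldn7 is above 0 in sorted cells (1.46) and below 0 in organs.

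Whether the XY minus XX difference itself differed between sorted cells and organs was tested as an interaction. By limma, 0 of 48 members and 0 of all genes were called at an adjusted p of 0.01 (0% of all genes). For 3 of the 48 members limma's unadjusted p was under 0.05, against 2367 of the 18193 genes measured. The highest value was that of Cldn7, 2.46 ± 0.93 (adjusted p = 0.389), followed by Cldn11 at 1.42 (adjusted p = 0.655), and the lowest that of Pard6g, -1.27 ± 0.51 (adjusted p = 0.427). For Gjb2 it was -0.08.

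The comparisons of sorted cells with the organ they came from ask which junction genes belong to the supporting cells and which to other cells of the gonad. Cldn18 and Cldn19, known from stomach or lung and from kidney, were higher in sorted cells than in organs for both sexes. Cldn5 and Gjb5 were lower in pre-granulosa cells than in ovaries. Second probe sets of Gjc1, a connexin of vessels and the heart, and of F11r were lower in both sorted groups. Sort, separate normalization and organ cannot be told apart here, and a difference is relative to the median probe set. In Sertoli minus testis 2 of 48 genes were called, both higher, against 7.05% of all genes (1.51% higher and 5.54% lower), and 4 by any probe set, against 11.5%. In pre-granulosa minus ovary 4 were called, 2 higher and 2 lower, against 6.10% (0.813% higher and 5.29% lower), and 7 by any probe set, against 9.78%. An unadjusted p under 0.05 was reached by 23 and 17 of the 48, against 38.9% and 37.3% of all genes.

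Cldn5 read 5.79 and 5.94 in pre-granulosa cells, 6.39 and 6.41 in Sertoli cells, 8.11 and 8.31 in ovaries and 7.45 and 8.11 in testes. Pre-granulosa cells were lower than ovaries by -2.11 ± 0.24 (adjusted p = 0.00419), or 4.33-fold, and Sertoli cells against testes gave -1.14 ± 0.24 (adjusted p = 0.0225). The pre-granulosa call was lost without pre-granulosa replicate 1 (0.0129) and without ovary replicate 1 (0.0284) or 2 (0.0350). The mean of 10 endothelial markers moved with Cldn5, at 5.25 and 5.81 in pre-granulosa cells, 6.20 and 6.44 in Sertoli cells, 7.75 and 7.80 in ovaries and 7.58 and 7.87 in testes, and 4 of them, Egfl7, Eng, Kdr and Robo4, were called lower in pre-granulosa cells than in ovaries. Kdr read 6.41 to 6.65 in sorted cells and 8.18 to 8.84 in organs, and Pecam1, which was not called, 4.34 to 4.76 and 5.90 to 6.52. Their part in the Cldn5 difference was not tested.

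Gjc1 gave its clearest difference by the probe set with the lower mean, which read 5.12 and 4.92 in pre-granulosa cells, 5.48 and 5.77 in Sertoli cells, 8.45 and 8.72 in ovaries and 9.03 and 9.11 in testes. It was lower in Sertoli cells than in testes by -3.21 ± 0.18 (adjusted p = 8.01e-04), 9.28-fold, and lower in pre-granulosa cells than in ovaries by -3.33 ± 0.18 (adjusted p = 8.75e-04). The testis call was lost without testis replicate 1 (0.0150) or 2 (0.0169) and the ovary call without ovary replicate 1 (0.0113) or 2 (0.0128). The probe set with the higher mean gave -1.56 ± 0.51 (adjusted p = 0.0776) and -1.28 ± 0.51 (adjusted p = 0.129), the same direction without a call. Markers of interstitial cells were lower in sorted cells too, with a mean over 6 genes of 7.40 to 8.39 against 10.36 to 11.56 in organs, and their part in this was not tested.

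Gjb5, a connexin of epidermis and placenta, read 5.85 and 5.75 in pre-granulosa cells and 7.22 and 7.41 in ovaries, a difference of -1.28 ± 0.16 (adjusted p = 0.00503) or 2.43-fold. Sertoli cells against testes gave -0.83 ± 0.16 (adjusted p = 0.0162). The ovary call on Gjb5 was lost without either pre-granulosa, ovary or testis array (0.0101 to 0.0395). For F11r the 2 probe sets went opposite ways. The brighter one read 9.37 to 10.09 in all arrays and gave 0.50 ± 0.27 (adjusted p = 0.224) against testes and 0.45 ± 0.27 (adjusted p = 0.277) against ovaries. The second read 4.59 to 4.67 in sorted cells and 6.04 to 6.35 in organs, and gave -1.30 ± 0.15 (adjusted p = 0.00395), a fold of at least 2.21 against testes, and -1.45 ± 0.15 (adjusted p = 0.00322), a fold of at least 2.46 against ovaries. The Sertoli call was lost without any Sertoli, ovary or testis array (0.0128 to 0.0425) and the pre-granulosa call without any ovary or testis array (0.0134 to 0.0290). With its probe sets opposed, F11r has no settled direction between sorted cells and organs.

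The claudins called higher in sorted cells read close to background. Cldn18 read 5.38 to 5.60 in sorted cells and 4.64 to 4.79 in organs, a difference of 1.00 ± 0.15 in Sertoli cells (adjusted p = 0.00908, with the mean of the testes under background) and 1.05 ± 0.15 in pre-granulosa cells (adjusted p = 0.00839, at least 1.91-fold). Cldn19 read 5.14 and 5.07 in pre-granulosa cells, 5.48 and 5.36 in Sertoli cells, 3.90 and 4.20 in ovaries and 4.17 and 3.99 in testes. Its differences were 1.57 ± 0.16 (adjusted p = 0.00325, at least 1.83-fold) and 1.29 ± 0.16 (adjusted p = 0.00589, at least 1.47-fold). The pre-granulosa calls on both genes were lost on leaving out any 1 array (0.0104 to 0.0535). The Sertoli call on Cldn18 was lost without any Sertoli, ovary or testis array (0.0230 to 0.0810) and that on Cldn19 without any Sertoli or testis array (0.0144 to 0.0377). With no constant added to the sorted arrays, Cldn18 was called against neither organ, while Cldn19 was called against both. A second Cldn18 probe set, at or under background in all arrays, was not called.

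Cgn was again higher in pre-granulosa cells, now against the ovary. Its second probe set gave 1.91 ± 0.21 (adjusted p = 0.00381, 3.76-fold) and its first 1.28 ± 0.23 (adjusted p = 0.0148). The call was lost without pre-granulosa replicate 1 or any ovary or testis array (0.0115 to 0.0328). In Sertoli cells against testes the 2 probe sets gave 0.77 ± 0.23 (adjusted p = 0.0590) and 0.21 (adjusted p = 0.491). Tjp1 leaned the other way, at 11.70 to 11.88 in organs and 9.94 to 11.08 in sorted cells, with -1.25 ± 0.35 (adjusted p = 0.0520) against testes and -0.99 (adjusted p = 0.0964) against ovaries, neither called. Cldn1, an epidermal claudin, read 3.80 to 3.95 in sorted cells by its probe set with the highest mean, under background. That probe set read 5.84 and 4.88 in ovaries and 6.18 and 5.88 in testes, with -1.85 ± 0.31 against testes (adjusted p = 0.0119). The 4 Cldn1 probe sets gave -1.85 to 0.41 against testes, and 2 of them, this one included, were lower in Sertoli cells. Without either ovary array Cldn1 was called lower in Sertoli cells (adjusted p = 0.00726).

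**Figure D5:**
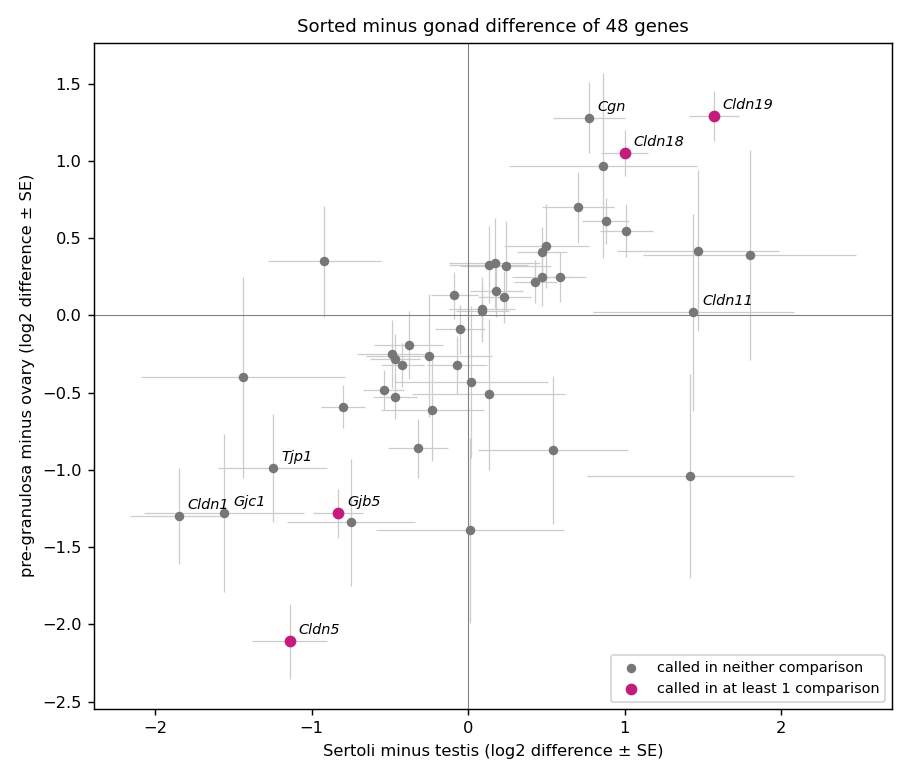
Pre-granulosa minus ovary difference (vertical axis) against Sertoli minus testis difference (horizontal axis), both in log2 units with standard errors and after the constant was added to the sorted arrays, for the 48 genes by the probe set with the highest mean. Cldn18 and Cldn19 lie above 0 on both axes, Cldn5 is lowest on the vertical axis at -2.11, and Cgn is at 0.77 and 1.28.

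Other junction genes were described by lists written with earlier results of these data known. They were not called between Sertoli and pre-granulosa cells (2.67% of all genes were), between testes and ovaries (0.352%) or in the interaction (0%). The counts were 0 of 16 adherens junction genes, 0 of 11 desmosome genes, 0 of 19 further tight junction and scaffold genes, 0 of 13 polarity partners and 0 of 3 pannexins. At such low shares these counts do not set the lists apart from genes at large. Ctnnb1, the beta-catenin of adherens junctions, read 13.51 to 13.83 in all arrays. Magi1, a tight junction scaffold, had a difference of -2.20 ± 0.30 and Ctnna2, an alpha-catenin, one of 3.70 ± 0.50, both with an adjusted p of 0.0126, outside the threshold. In Sertoli minus testis 7.05% of all genes were called (1.51% higher and 5.54% lower). There 2 of 16 adherens junction genes were lower, the cadherin Cdh11 by -3.67 ± 0.47 (adjusted p = 0.00539) and plakoglobin, Jup, by -1.86 ± 0.15 (adjusted p = 0.00173). So were the tight junction list's Mpdz (-2.62, adjusted p = 0.00363), Clmp (-3.40, adjusted p = 0.00771) and Amotl1 (-1.26, adjusted p = 0.00613), and the pannexin Panx3 (-0.89, adjusted p = 0.00842). The desmosomal cadherin Dsg2 was higher, at 10.92 and 10.89 in Sertoli cells against 9.18 and 9.28 in testes, a difference of 1.91 ± 0.14 (adjusted p = 0.00130). In pre-granulosa minus ovary 6.10% of all genes were called (0.813% higher and 5.29% lower). There Jup (-1.50, adjusted p = 0.00310) and Mpp5 (-1.41, adjusted p = 0.00502), a partner of the Crumbs polarity complex, were lower. Of the 13 genes on the polarity partner list, which does not hold Mpp5, 0 were called in any comparison (11.1% of all genes were). Cdc42, the small GTPase that binds Par6, read 11.16 to 12.95.

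Over the 5 comparisons, 6 of the 48 genes were called at least once by the probe set with the highest mean against 11.1% of all genes, and 10 by any probe set, against 16.7%, which leaves 38 that no probe set called. The spread between the 2 arrays of a group, as a root mean square of the members' standard deviations, was 0.523 in pre-granulosa cells, 0.440 in Sertoli cells, 0.353 in ovaries and 0.190 in testes. A member not called may still differ, and by more than those spreads. Cldn11, for one, was not called at a Sertoli minus pre-granulosa difference of 2.31 ± 0.64. Gjb2 was the single member called in both sorted cells and whole organs for XY against XX.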

How the data were processed

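Per the submitters' processing notes the deposited values are log2 probe set values from RMA, with no version given. Other upstream steps are not given in the sources used here. The authors' own test (at a false discovery rate of 1%, per the series text) was not used. The table held 45101 probe sets. The 64 array controls were left out. The remaining 45037 carried a single symbol (34945), several (932) or none (9160). All 85 member probe sets matched RefSeq by gene identifier.

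Sorted arrays shared 1 distribution of values and gonad arrays another, so a constant, 0.23, the median difference over probe sets, was added to the sorted arrays for sorted minus gonad comparisons. limma 3.58.1 in R 4.3.3 fitted 1 mean per group over 8 arrays, with eBayes, 4 residual and 2.20 prior degrees of freedom, two-sided tests and p-values adjusted by Benjamini-Hochberg over 45037 probe sets. Called means an adjusted p of at most 0.01. Errors are the model's standard errors, n = 2 arrays a group. A fold is given where neither group read at or under 4.78 in both arrays. Otherwise "at least" is measured from that level. Precision is limited by the number of arrays. The fit was tested on simulated data. Genes of a family can share sequence, and probe sets of a gene can match different transcripts.

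The members and lists were chosen with earlier results of these data known. Named genes are all called members, those with the highest and lowest differences whose groups do not overlap (6 each way for Sertoli minus pre-granulosa and testis minus ovary, 3 each way otherwise), and a fixed list of well-known members. Those of the rule that are not named in the text are given by counts and ranges. Alternatives were quantile normalization, a filter on dim probe sets, other moderation, array weights, the replicate number as a block, other arrays in the fit, a threshold of 0.05, other ways to take a gene's probe set, no constant, and each array left out. Promoter windows were read with Python 3.11.15.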

Additional observations from a re-analysis of the deposited data

Results flagged for a closer look

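For 4 of the 48 genes both XY arrays read higher than both XX arrays in sorted cells and lower in whole organs, by unrounded values, while 6.66% of all genes (1211 of 18193) ran opposite ways without overlap, in either direction. The difference between the XY minus XX values was 2.46 ± 0.93 for Cldn7 (adjusted p = 0.389), 0.97 ± 0.33 for Cldn5 (adjusted p = 0.345), 0.54 ± 0.27 for Cldn3 (adjusted p = 0.541) and 0.46 ± 0.24 for Gjb1 (adjusted p = 0.557), by limma's interaction term, and none was called. Cldn7 read 4.99 in pre-granulosa replicate 1 and 7.14 in replicate 2, and Gjb1 read 4.69 to 5.61, close to background. Endothelial markers, like Cldn5, were higher in Sertoli than in pre-granulosa cells, by a median of 0.65 over 10 genes, with 1 called, Robo4. In testes minus ovaries their median difference was -0.16, with 0 called. The part of these markers in the Cldn5 values was not tested.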

How the results depend on the processing

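Called members numbered 2 between the sorted groups, 1 between organs, 2 between Sertoli cells and testes and 4 between pre-granulosa cells and ovaries. The interaction had 0 under every alternative run. Without eBayes moderation each count fell to 0, against 0.0440%, 0%, 1.13% and 0.676% of all genes. In that order, 0, 0, 2 and 0 were called in a fit of the compared arrays alone, against 0%, 0.291%, 6.33% and 0% of all genes, where Sertoli minus testis kept Cldn19, lost Cldn18 and gained Cldn1. This alternative could not be run apart for the interaction, which uses all arrays. With 1 array weight per group the counts were 1, 2, 7 and 0, against 0.956%, 1.41%, 13.2% and 3.33%. Replicate numbers did not pair the samples (correlations of deviations -0.16 to 0.05). With the replicate block the counts were 1, 1, 1 and 1, against 1.15%, 0.0715%, 3.07% and 2.82%. By any probe set they were 4, 1, 4 and 7. Sertoli minus testis gave 1 of the 39 members left without dim probe sets (8.12% of 15404 genes), 4 with trend and robust moderation (7.18% of all genes), 4 with no constant (9.70%), 10 at an adjusted p of 0.05 (22.0%) and 6 with the mean of a gene's probe sets (9.88%). Pre-granulosa minus ovary gave 9 at 0.05 (20.5%). With each array left out, the counts of called members moved in these comparisons, and so did those over all genes. In such a fit a lone array is assumed to vary like the other groups. Sertoli minus testis called 0 of all genes without either testis array. For all probe sets of F11r averaged, Sertoli minus testis turned to -0.40 and pre-granulosa minus ovary to -0.50, since its 2 probe sets differ in sign. For the named genes, 836 values kept direction and side of the threshold, 140 lost the call, 19 gained it and 2 reversed. The cause of the other shifts was not tested. 2 arrays a group and readings near background limit what could be called.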
